A study of Mus musculus with 16 samples.

Results

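The response of cardiac lymphatic endothelial cells to myocardial infarction (MI, blockage of a coronary artery) was compared between mice operated on at postnatal day 1 (P1) and at postnatal day 56 (P56). For each gene the interaction was taken on the log2(value + 1) scale, as the difference between MI and sham at P56 minus the difference between MI and sham at P1. A positive interaction therefore means that the response of a transcript was more positive, or less negative, at P56 than at P1. All 16 RNA libraries of the series entered, 4 in each group, namely sham and MI at P1 and sham and MI at P56. The comparison was also made in 13 of the 16, leaving out 3 libraries with fewer than 10000 genes above 0.

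All mice were CD1 (ICR), with no allele or drug treatment named that would separate the groups, and hearts were taken 3 days after surgery. Sham animals of each age underwent the operation without the infarct. In adults, all male, the left descending coronary artery was tied off permanently, and the heart was digested through the aorta for about 8 minutes. Newborn ventricles, for which no sex is given in the sources used here, were cut up, pooled in groups of 6 and stirred in enzyme for 30 to 40 minutes. Age therefore cannot be told apart from the mode of digestion, the pooling, the sex of the animals and the operation. Cells lacking CD45 (Ptprc, on leukocytes) and carrying CD31 (Pecam1) and podoplanin (Pdpn) were sorted from the non-myocyte fraction. Whether libraries of 1 group came from separate pools or animals is not given in the sources used here, so the p-values measure only the spread between these libraries.

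Lymphatic vessels of the heart drain fluid and immune cells from the myocardium, and their endothelium sprouts and divides in growing hearts and after injury. The mouse heart can regenerate in the first days after birth and later heals by a scar, in which fibroblasts and other cells lay down collagens, fibronectin, periostin and tenascin C. Dividing cells switch on a shared set of spindle, kinetochore and cytokinesis genes. The interaction asks which of these programmes respond differently to MI at the 2 ages, each age set against its own sham-operated group.

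The libraries held 17103319 to 43837520 reads each over 15895 genes. The 3 libraries with few genes were sham P1 library 1 (9451 genes), sham P1 library 2 (7939) and MI P56 library 5 (7746), against 14121 to 15821 in the others. In sham P1 library 2 and MI P56 library 5 reads on Uqcrc1, a respiratory chain gene, made up 98.6% and 99.8% of the total, and 3 reads on a gene were worth a value of 12.1 and 12.9, against 0.0489 to 0.109 in the 13 others. The 13 libraries comprise 2 of sham P1 (libraries 3 and 5), 4 of MI P1, 4 of sham P56 and 3 of MI P56. Sham P1 library 5 itself had 47.3% of its reads on Uqcrc1. Where values of single libraries follow, they stand in the order of the library numbers, 1, 2, 3 and 5 (3 and 5 for sham P1, and 1, 2 and 3 for MI P56).

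The cells carried the markers of their label at both ages. In the 13 libraries Prox1, the transcription factor of lymphatic fate, was at 439 and 303 in sham P1, 224, 238, 376 and 516 in MI P1, 329.6, 298, 241 and 169 in sham P56 and 262, 139 and 167 in MI P56. Lyve1, a hyaluronan receptor of lymphatic capillaries, was at 757 and 591 in sham P1, 363, 477, 657 and 515 in MI P1, 612, 431, 485 and 311 in sham P56 and 652, 437 and 179.6 in MI P56. Both sets of values overlapped between sham and MI at each age. The interactions were -0.27 ± 0.46 (SE) for Prox1, 0.18 ± 0.51 for Lyve1, -0.47 ± 0.48 for the VEGF-C receptor gene Flt4, -0.20 ± 0.45 for Pdpn, -0.64 ± 0.36 for Pecam1, 0.05 ± 0.42 for Thy1 (CD90) and 0.14 ± 0.65 for Ptprc. None of these 7 genes passed the test in either fit. Ptprc was low, at 0.506 and 0.109 in sham P1, 1.26, 3.05, 0.0997 and 2.04 in MI P1, 0.964, 0.362, 1.09 and 1.34 in sham P56 and 1.10, 3.21 and 5.31 in MI P56.

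With all 16 libraries 1 of 13243 genes had a higher interaction at an adjusted p under 0.05 (0.00755% of the genes tested) and 0 a lower one (0%), by limma with Benjamini-Hochberg adjustment. The gene was Postn, which encodes the scar matrix protein periostin, with an interaction of 4.68 ± 0.71 (adjusted p = 0.0155). At an unadjusted p under 0.05 there were 1278 genes. On reads recovered from the same table, edgeR called 1 gene (0.00755%) and DESeq2 107 (0.808%). The call of Postn was lost without any 1 of 8 of the 16 libraries (sham P1 1, MI P1 3 and 5, sham P56 1, 3 and 5, MI P56 1 and 3), with its sign kept. The 1 gene of edgeR was Cthrc1 (adjusted p = 0.0494), while Postn had an adjusted p of 0.0620 there. The median of all genes was shifted to -0.50 in this fit, with a median response of -0.17 at P56 and 0.39 at P1. Of the 13243 genes 3834 (29.0%) had a positive interaction. List medians and signs given below for all 16 libraries stand against this shifted baseline.

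With the 13 libraries 42 of 13033 genes had a higher interaction (0.322%) and 21 a lower one (0.161%), and the median of all genes was -0.01. At an unadjusted p under 0.05 there were 1421. DESeq2 called 324 genes (2.49%), including all 63, and edgeR called 44 (0.338%), of which 31 were among the 63. Postn was the 1 gene called in both fits. Of the 63, 40 of 42 and 21 of 21 had the same sign with all 16 libraries, the exceptions being Ncaph and Kdelr2. Values below are from the 13 libraries, and calls are by limma, unless stated. In this fit 6468 of the 13033 genes (49.6%) had a positive interaction. Counts of called members in the lists below stand against the shares of 0.322% and 0.161%. The lists and their members were chosen with earlier results of these data known. Their counts, signs and medians are therefore descriptions and no separate test.

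The count depended on single libraries, above all in the sham P1 group, which had 2. Without sham P1 library 5 it became 1 higher and 0 lower, and the gene left was Tnc, at an adjusted p of 0.00646. The other 62 then had adjusted p-values between 0.0914 and 0.459. Without sham P1 library 3 the counts were 9 and 6, without MI P1 libraries 1, 2, 3 and 5 they were 4 and 2, 30 and 10, 8 and 3, and 16 and 17. Without MI P56 library 1 they were 24 and 6, and without library 3 of that group 4 and 3. Without sham P56 library 5 they were 20 and 8, and without sham P56 library 2 they grew to 143 and 85. Leaving out MI P56 library 2 (46 and 21) or sham P56 library 1 (44 and 20) or 3 (32 and 20) moved neither count by over 1.5 times. The 42 genes kept a positive and the 21 a negative interaction in every refit in which they were tested (Mylk4 fell below the filter on low values in the 4 refits without a sham P56 library). They were chosen for large interactions in these same libraries, so the kept sign follows largely from that choice and is no separate test. Tnc kept its call without any 1 library, and Lox, Postn, Anln, Btnl9 and Enpp2 kept theirs in 12 of 13 refits.

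**Figure D1:**
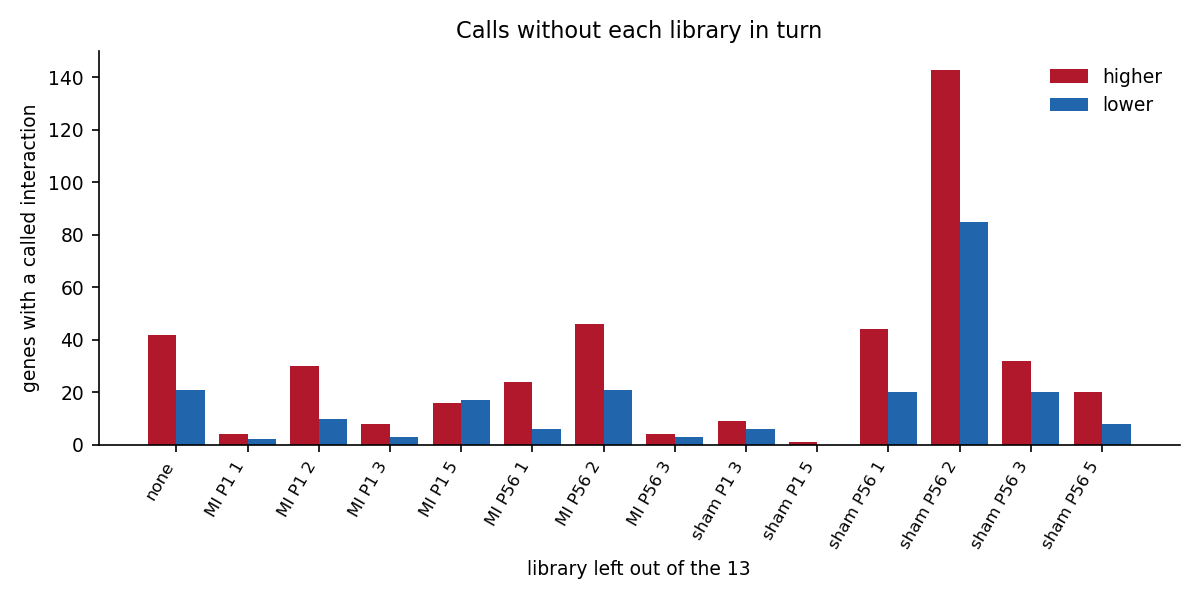
Number of genes with a called interaction (limma, adjusted p under 0.05) in the 13 libraries and when each of these is left out in turn, higher in red and lower in blue. The count runs from 1 higher and 0 lower without sham P1 library 5 to 143 and 85 without sham P56 library 2.

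At P56 alone, 307 of the 13033 genes were higher after MI (2.36%) and 139 lower (1.07%), while at P1 alone 0 were called in either direction (0%; 485 at an unadjusted p under 0.05). At P1 edgeR called 0 (0%) and DESeq2 7 (0.0537%). Of the 307 genes, 306 had a positive interaction but 42 a called one. Their median response was 1.71 at P56 and 0.02 at P1, and 158 had the same sign at P1. Of the 139 lower genes, 139 had a negative interaction and 14 a called one. Their median response was -1.37 at P56 and 0.22 at P1. The P56 response is part of the interaction. The signs in these 2 sets thus follow largely from how the genes were chosen and are no separate test. Across all 13033 genes the responses at P56 and P1, which share no library, correlated with r of -0.02 (Spearman's rank correlation -0.03), and 49.1% had the same sign. This is a description across genes, which are not independent of each other. The median SE of a response was 0.35 at P56 and 0.39 at P1, close to the spread of all P1 responses (SD 0.40), whereas the SD of the P56 responses was 0.59.

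**Figure D2:**
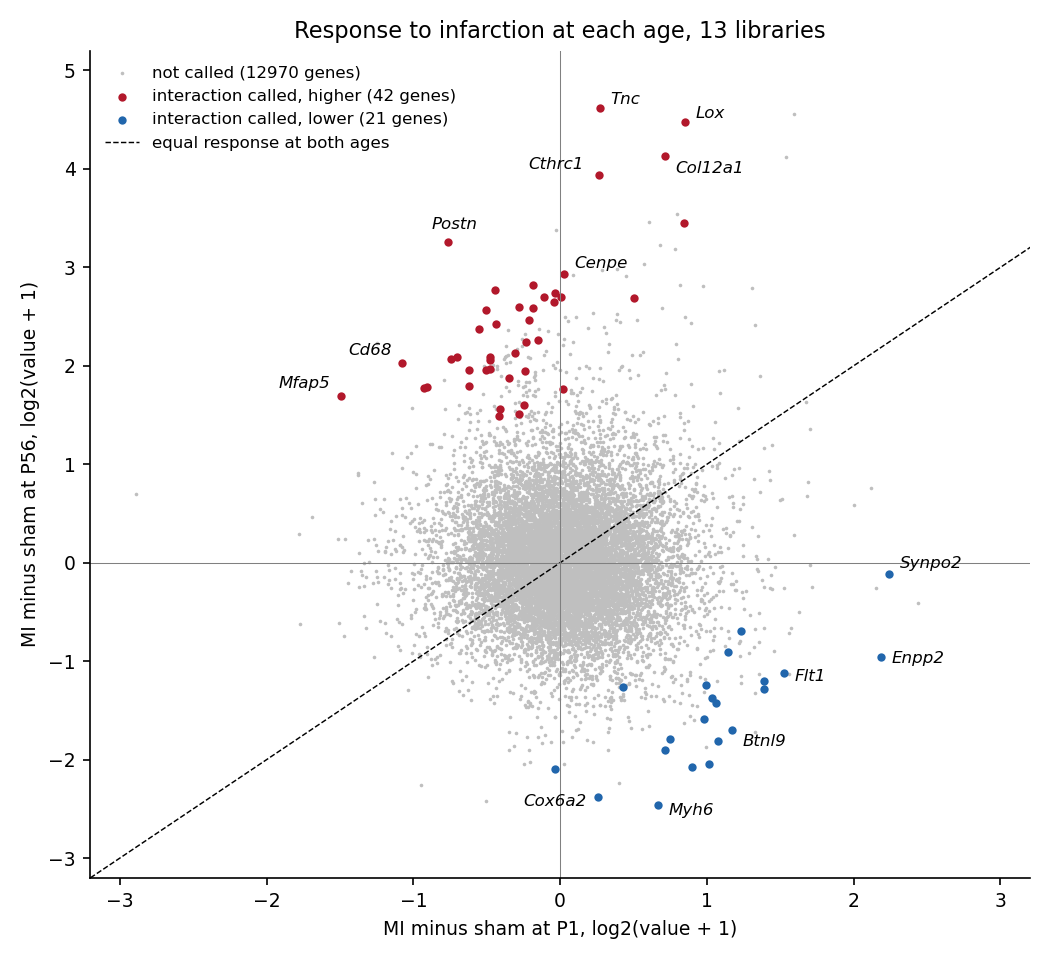
Each point is 1 of 13033 genes, with its response to MI at P1 on the horizontal and at P56 on the vertical axis, both as log2(value + 1) differences between group means in 13 libraries. The 42 genes with a called higher interaction (red) lie at P56 responses of 1.49 and above, 40 of 42 of them within 1 of 0 at P1, and the 21 lower ones (blue) lie below 0 at P56 and, for 20 of 21, above 0 at P1.

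The 42 genes with a higher interaction were alike at P56 and more varied at P1. All 42 also rose with MI at P56, where every MI library lay above every sham library, and 40 of 42 had a P1 response within 1 log2 unit of 0. The P1 response was negative in 33 and positive in 9, and 0 were called there. In 11 of 42 every MI P1 library lay below both sham P1 libraries, and in 2 above both. The median response was 2.25 at P56 and -0.30 at P1. In the sham hearts all 42 had a lower mean at P56 than at P1, and 37 of 42 were called lower with age, where 949 of 13033 genes were (7.28%). Sham P56 was the lowest of the 4 group means in 40 of 42. After MI the median difference between the ages was 0.03. The MI P56 mean was within 2-fold of the sham P1 mean in 23, above both P1 means in 20 and below both in 17. The same 4 means make up the interaction, so these counts describe its shape and are no separate test.

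The 21 genes with a lower interaction went the other way at P56, with a larger share of the difference at P1. All 21 had a negative P56 response, and 14 of 21 were called lower there. At P1 20 of 21 were positive and 12 of 21 by at least 1 log2 unit, 15 of 21 had an unadjusted p under 0.05, and in 13 every MI library lay above both sham libraries. The median response was -1.42 at P56 and 1.03 at P1. All 21 were called higher with age in sham hearts, where 767 of 13033 genes were (5.89%), and sham P56 was the highest of the 4 means in 19. After MI the median difference between the ages was -0.13, and 2 of 21 were called. Here too the 4 means make up the interaction by which the 21 were chosen, so these counts and shares are no separate test.

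**Figure D3:**
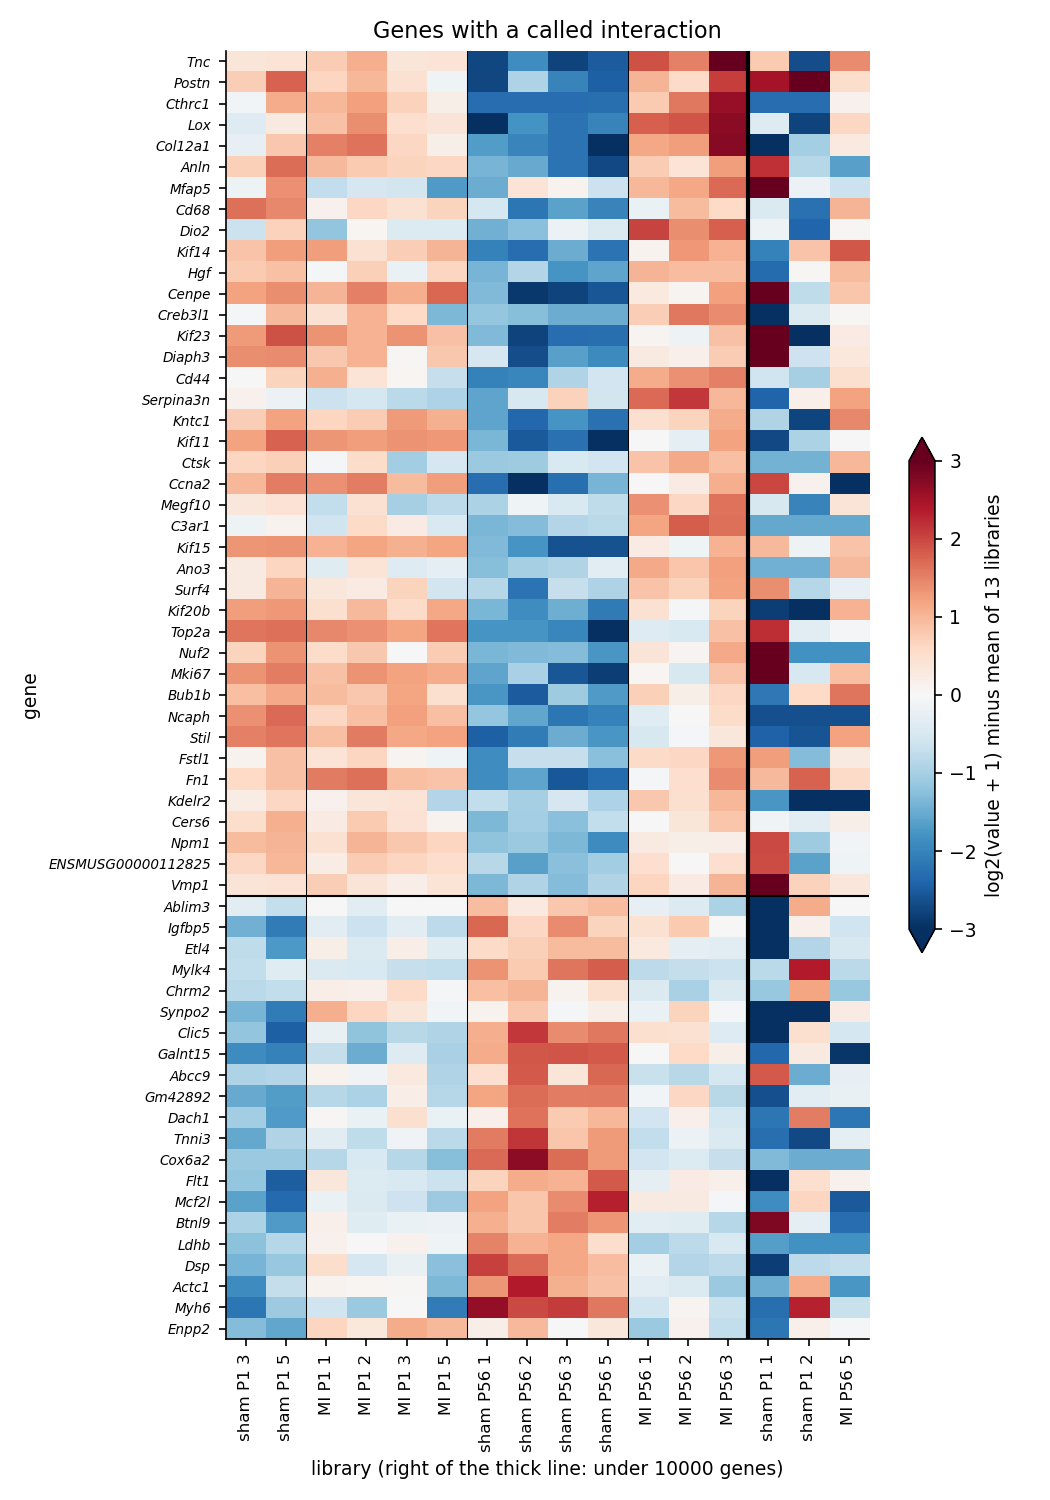
Each row is a gene with a called interaction (a few of the 63 are not shown) and each column a library, with colour giving log2(value + 1) minus the mean of the gene over the 13 libraries (scale cut at -3 and 3). Sham P56 is the blue block for the higher genes and the red block for the lower ones, and the 3 sparse libraries stand to the right of the thick line.

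Genes of the interstitial matrix, which forms the scaffold of a scar, made up a large part of the strongest interactions. Tnc, which encodes tenascin C (chromosome 4, 63959785 to 64047015, GRCm38), was at 73.0 and 74.4 in sham P1, 95.5, 121, 72.1 and 75.1 in MI P1, 7.6, 14.6, 7.40 and 9.20 in sham P56 and 213, 162 and 474 in MI P56. The 4 sham P56 libraries lay far below all others and the 3 MI P56 libraries above all others, while both P1 groups overlapped. Its response was 4.62 ± 0.31 (SE) at P56 and 0.27 ± 0.35 at P1, and its interaction 4.35 ± 0.47 (adjusted p = 2.25e-04). The sparse libraries held 97.3 and 8.08 in sham P1 libraries 1 and 2 and 151 in MI P56 library 5, and with all 16 the interaction was 3.50 (adjusted p = 0.348).

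Postn (chromosome 3, 54361109 to 54391037) was at 597 and 1222 in sham P1, 561, 711, 491 and 327 in MI P1, 53.0, 188, 88.0 and 64.4 in sham P56 and 731, 531 and 1522 in MI P56. Its MI P1 values all lay below those of sham P1 library 5 and 3 of 4 below library 3, while all MI P56 values were above all sham P56 values. The response was 3.26 ± 0.40 at P56 and -0.76 ± 0.46 at P1, with an interaction of 4.02 ± 0.61 (adjusted p = 0.00566, or 0.147 without sham P1 library 5). The sparse sham P1 libraries were still higher, with 2013 and 3659 in sham P1 libraries 1 and 2 and 518 in MI P56 library 5.

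Cthrc1, a secreted protein gene of repair fibroblasts (chromosome 15, 39076932 to 39087121), had 0 reads in 3 of 4 sham P56 libraries and 1 read in library 5, at a value of 0.0170. It was at 7.33, 13.7 and 28.8 in MI P56, 3.56 and 9.53 in sham P1 and 8.71, 10.5, 6.88 and 4.53 in MI P1. The P1 groups overlapped, and the interaction was 3.67 ± 0.63 (adjusted p = 0.0159), a size that depends on the pseudocount because sham P56 is at the floor. Col12a1, a fibril-associated collagen, was at 14.5 and 31.1 in sham P1, 52.0, 56.2, 27.3 and 20.0 in MI P1, 4.77, 3.70, 2.97 and 0.340 in sham P56 and 40.2, 42.9 and 122 in MI P56, with an interaction of 3.41 ± 0.73 (adjusted p = 0.0464). All 4 MI P1 libraries lay above sham P1 library 3 and 2 of 4 above library 5, and the MI P56 libraries lay above all sham P56 ones. The call held in 4 of 13 refits without 1 library.

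Fn1, fibronectin, which cells bind through integrins, was at 758 and 919 in sham P1, 1475, 1569, 935 and 909 in MI P1, 138, 168, 86.0 and 101 in sham P56 and 482, 710.4 and 1346 in MI P56. The P56 groups did not overlap and the P1 groups did. The interaction was 2.19 ± 0.48 (adjusted p = 0.0480), the smallest of the 5 called in this list, and it was lost without any of 11 libraries. Col1a1, the main collagen of scars, had an interaction of 3.41 ± 0.78 that did not pass the test (adjusted p = 0.0537). Its sham P1 values were 630.2 and 1492 and its MI P1 values 1412, 1657, 1043 and 338, a spread that covers both groups.

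Of the 28 interstitial matrix genes tested, 5 were called higher, 0 lower and 23 not called, and 25 had a positive interaction, against 6468 of 13033 genes. The list median was 2.09, made of 1.96 at P56 and -0.06 at P1, against -0.01 for all genes. It stayed between 1.73 (without sham P1 library 5) and 2.35 (without sham P1 library 3) when single libraries were left out, and was 1.81 with 16 libraries. At P56 alone 19 of 28 had been called higher. The 3 negative members were Fmod, Eln and Comp, none of them called. The mean log2 level over the 28 genes was 6.5 ± 0.52 (SD, n = 2) in sham P1 against 6.51 ± 0.54 (n = 4) after MI at that age. In sham P56 it was 4.97 ± 0.34 (n = 4), against 6.95 ± 0.53 (n = 3) after MI.

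Among 18 enzymes that modify and cross-link collagen 1 was called higher, against 0.322% of all genes. A positive interaction was found in 17 of 18, against 49.6% of all genes (median 1.28, from 1.15 at P56 and 0.14 at P1). With all 16 libraries 11 of 18 were positive and the median was 0.54, or 0.24 without MI P56 library 3. The called gene was Lox, lysyl oxidase, which starts collagen cross-links. It was at 25.4 and 40.3 in sham P1, 62.5, 89.1, 48.3 and 43.8 in MI P1, 2.31, 8.90, 6.48 and 7.6 in sham P56 and 118, 126 and 224 in MI P56, so that every MI library was above every sham library at both ages. The step was 4.47 ± 0.35 at P56 and 0.85 ± 0.39 at P1, and the interaction 3.62 ± 0.52 (adjusted p = 0.00542, or 0.1 without sham P1 library 5). P4ha3, a prolyl hydroxylase subunit of collagen synthesis, came next at 2.74 ± 0.63 without a call (adjusted p = 0.0554). Its values were 1.12, 0.0259, 0.651 and 0 in sham P56 and 17.9, 12.4 and 15.3 in MI P56, against 6.29 and 14.3 and 20.7, 36.9, 13 and 8.95 at P1.

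Among 20 matrix proteases and inhibitors the median was 0.53, and 14 of 20 were positive. For 15 basement membrane genes, the collagens IV and laminins that endothelium itself rests on, 0 were called and the median was 0.02 (8 positive, 7 negative), against 2.09 for the interstitial matrix. The sign of the basement membrane median changed with the libraries used, down to -0.10 without sham P1 library 5.

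Markers of fibroblasts mostly had positive interactions as well. Of 16 fibroblast genes 13 had a positive interaction, against 49.6% of all genes (median 1.06, from 0.52 at P56 and -0.93 at P1). Where 0.322% of all genes were called higher, 1 of the 16 was called. That was Mfap5, a microfibril protein gene of fibroblasts, at 24.8 and 73.4 in sham P1, 16.1, 19.2, 18.4 and 7.80 in MI P1, 9.21, 36.9, 29.6 and 17.4 in sham P56 and 56.2, 63.1 and 92.3 in MI P56. It was lower in every MI P1 library than in both sham P1 libraries and higher in every MI P56 than in every sham P56 library, with an interaction of 3.19 ± 0.63 (adjusted p = 0.0331). The summed level of the 16 genes ran from 828 to 1926 in sham P1, 381 to 1060 in MI P1, 658 to 3783 in sham P56 and 1937 to 2990 in MI P56, and no marker was at 0 in a whole group. The list median was 0.48 without sham P1 library 5, and 0.43 with all 16 libraries, where 10 of 16 were positive. The part that fibroblast RNA has in the matrix interactions was not tested, and in bulk samples fewer cells of a type and less RNA per cell cannot be told apart.

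Genes of mitosis formed the other large group among the 42. Of 26 tested, 8 were called higher (0.322% of all genes were), 0 lower and 18 not called. A positive interaction was found in 26 of 26, against 49.6% of all genes. The median was 2.11, made of 1.70 at P56 and -0.21 at P1. It ran from 1.77 to 2.30 when single libraries were left out and was 0.98 with all 16 libraries. The mean log2 level of the 26 genes was 3.98 ± 0.27 (SD, n = 2) in sham P1 and 3.77 ± 0.11 (n = 4) in MI P1, and 1.34 ± 0.31 (n = 4) in sham P56, against 3.07 ± 0.56 (n = 3) after MI at that age. At P56 the MI libraries thus stood between the adult sham level and the level common to both P1 groups.

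**Figure D4:**
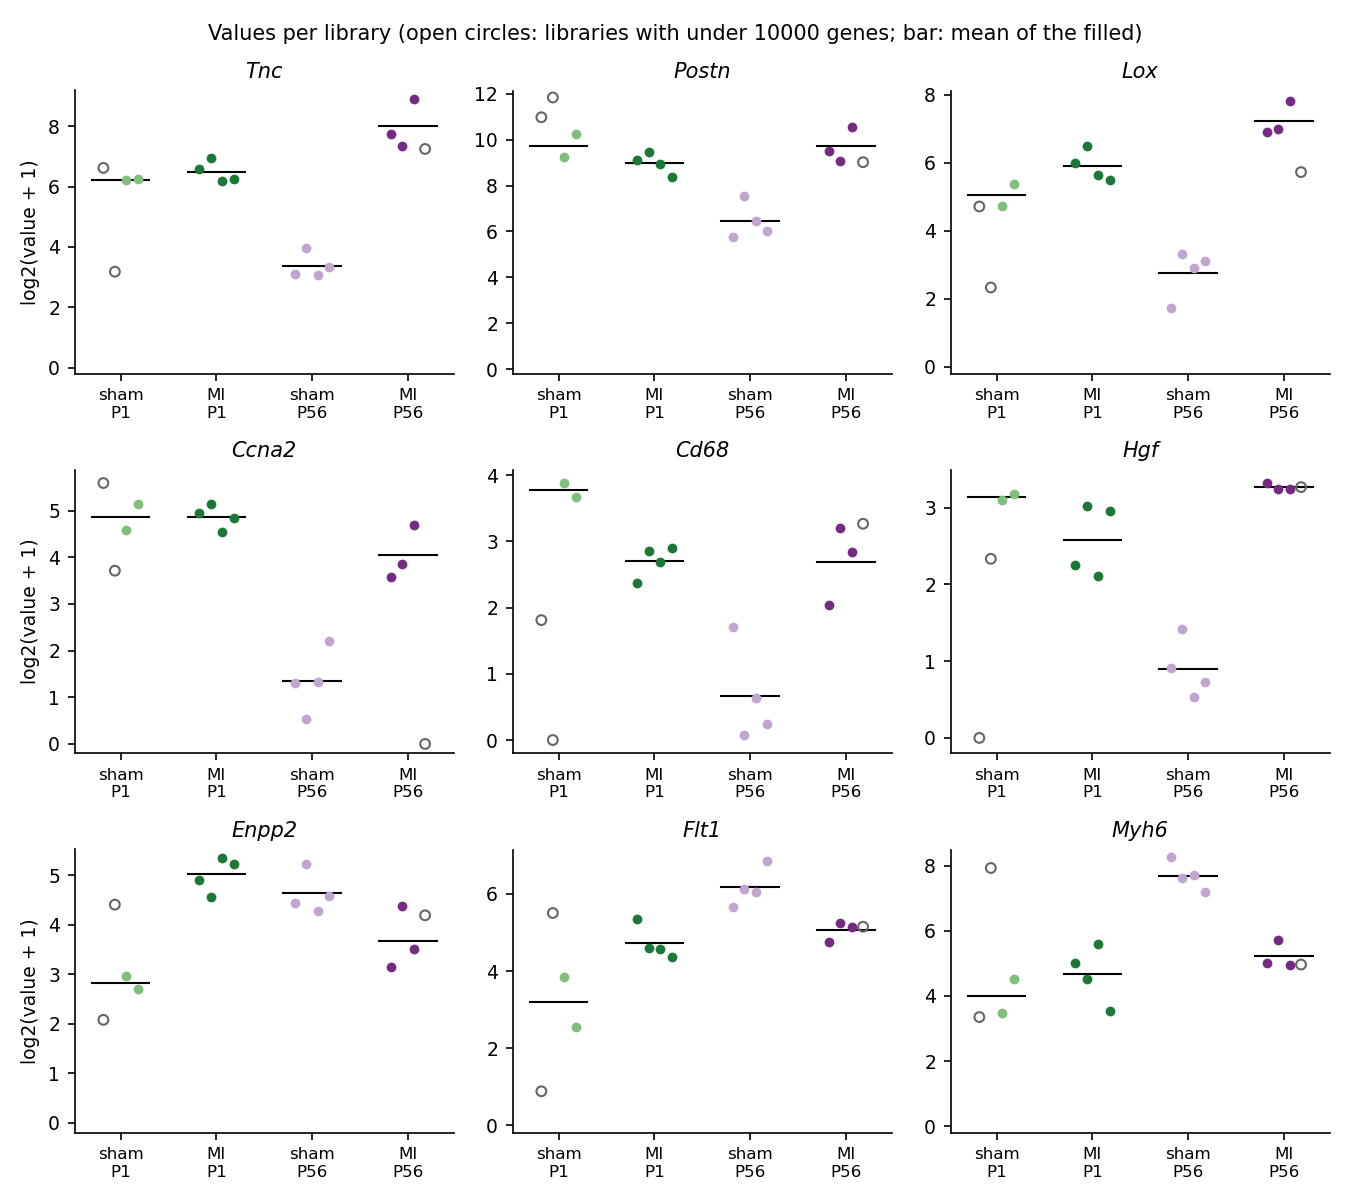
Deposited values as log2(value + 1) of 9 genes with a called interaction in every library, by group, with filled points for the 13 libraries, open circles for the 3 sparse ones and a bar at the mean of the filled points. By these means sham P56 is the lowest group for Tnc, Postn, Lox, Ccna2, Cd68 and Hgf and the highest for Flt1 and Myh6, and Enpp2 is higher in all 4 MI P1 libraries than in sham P1 libraries 3 and 5.

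The called members act at successive steps of division. Anln, the actin-binding anillin of the cleavage furrow (chromosome 9, 22332012 to 22389188), was at 26.4 and 51.7 in sham P1, 31.4, 27.4, 25.1 and 24.3 in MI P1, 5.27, 4.76, 2.55 and 1.55 in sham P56 and 27.0, 21.0 and 38.4 in MI P56. All sham P56 libraries were far below the rest, and 2 of 3 MI P56 libraries fell within the P1 range. Its interaction was 3.21 ± 0.49 (adjusted p = 0.00566). Cenpe, a kinetochore motor, had values of 50.9 and 58.1 in sham P1, 44.2, 63.3, 46.4 and 72.5 in MI P1, 7.87, 2.02, 2.28 and 2.77 in sham P56 and 26.4, 22.7 and 51.9 in MI P56, and an interaction of 2.90 ± 0.52 (adjusted p = 0.0203). Its MI P56 values reached the P1 range in 1 of 3 libraries.

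Ccna2, cyclin A2, which drives S phase and the entry to mitosis, was at 23.2 and 34.2 in sham P1, 30.1, 34.2, 22.3 and 27.8 in MI P1, 1.48, 0.440, 1.52 and 3.59 in sham P56 and 11, 13.4 and 24.9 in MI P56. The P1 groups overlapped (response 0.00 ± 0.40) and the P56 groups were apart (response 2.70 ± 0.35), with an interaction of 2.69 ± 0.53 (adjusted p = 0.0326). The kinesins Kif23 (2.86 ± 0.53) and Kif11 (2.77 ± 0.57), topoisomerase Top2a (2.47 ± 0.54), the proliferation marker Mki67 (2.44 ± 0.54) and the checkpoint kinase Bub1b (2.41 ± 0.51) were called too, with adjusted p-values from 0.0243 to 0.0485. At P56 their MI and sham libraries were apart, and at P1 they overlapped except for Top2a, where every MI library lay below both sham libraries. Mki67 was at 291 and 332 in sham P1, 209.8, 291, 262 and 246 in MI P1, 36.9, 57.4, 18.4 and 15.2 in sham P56 and 119, 81.3 and 205 in MI P56, so its MI P56 values exceeded all sham P56 values and stayed below every P1 value.

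Another 8 called genes outside the list, picked here after their values were seen, are known for work in division. Kif14, Kif15 and Kif20b are mitotic kinesins, Kntc1 and Nuf2 belong to kinetochores, Ncaph is a condensin subunit, Stil builds centrioles and Diaph3 is a formin. Their interactions lay between 2.23 (Stil) and 3.00 (Kif14). In 23 genes of DNA replication, the step before mitosis, 21 had a positive interaction but 0 were called. The median of 0.74 was -0.06 with all 16 libraries, where that of all genes was -0.50. Its leading members were Uhrf1 (2.06 ± 0.53, adjusted p = 0.0949), which keeps DNA methylation through replication, and the ribonucleotide reductase subunit Rrm2 (2.03 ± 0.52, adjusted p = 0.0969).

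Promoters of mitotic genes are known to carry CCAAT boxes and the element TTTGAA, called CHR, near the start site. As all 26 mitosis genes had a positive interaction, RefSeq promoter windows (build GRCm38.p6, 250 bases before to 50 after the start) were searched on both strands for CCAAT and for TTTGAA, for the TATA box as TATAAA, for the AP-1 motif as TGANTCA and for the TEAD motif as GGAATG, each counted without regard to overlap with another. Of the 26 genes 22 had a window, 23 windows in all. CCAAT was in 82.6% of them and in 37.4% of all 32851 windows. TTTGAA was in 78.3% and 17.9%, and both together in 69.6% and 6.95%. Of the 7 called genes with a window, 6 held CCAAT, 6 held TTTGAA and 5 held both, while Anln had TTTGAA alone and Cenpe CCAAT alone. In 19 windows of 15 interstitial matrix genes CCAAT was in 31.6% and TTTGAA in 26.3%. TATAAA was in 31.6% of the matrix windows, 0 of the mitosis windows and 13.6% of all. TGANTCA was in 5.26%, 0% and 7.81%, and GGAATG in 10.5%, 8.70% and 14.7%. In the 35 windows found for the 42 genes called higher, which include the called mitosis genes, CCAAT was in 40% and TTTGAA in 37.1%. A match is a description of the letters and not a shown binding site. Whether these motifs bear on the interaction was not tested.

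The stretches from 200 bases before to 30 after the start are shown for 4 called genes that hold both motifs, to let the spacing be seen, in lower case with every CCAAT or TTTGAA in capitals (ATTGG and TTCAAA where it lies on the other strand). Kif23 is chr9:61946770-61946999 on the minus strand, Kif11 chr19:37376182-37376411 on the plus strand, Top2a chr11:99024160-99024389 on the minus strand and Mki67 chr7:135716350-135716579 on the minus strand.
Kif23: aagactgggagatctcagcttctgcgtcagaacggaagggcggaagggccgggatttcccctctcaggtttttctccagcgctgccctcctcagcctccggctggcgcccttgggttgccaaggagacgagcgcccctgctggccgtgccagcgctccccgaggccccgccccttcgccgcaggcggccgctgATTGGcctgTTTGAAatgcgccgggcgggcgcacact
Kif11: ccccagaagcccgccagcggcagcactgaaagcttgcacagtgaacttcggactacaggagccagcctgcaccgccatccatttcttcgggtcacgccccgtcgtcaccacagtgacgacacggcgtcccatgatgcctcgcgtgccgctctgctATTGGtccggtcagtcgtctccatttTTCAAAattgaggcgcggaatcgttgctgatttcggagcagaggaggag
Top2a: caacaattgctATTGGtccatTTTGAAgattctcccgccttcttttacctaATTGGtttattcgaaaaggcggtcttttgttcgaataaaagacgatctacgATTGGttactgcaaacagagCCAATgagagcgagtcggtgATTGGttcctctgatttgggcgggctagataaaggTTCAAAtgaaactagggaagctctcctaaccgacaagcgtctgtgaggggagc
Mki67: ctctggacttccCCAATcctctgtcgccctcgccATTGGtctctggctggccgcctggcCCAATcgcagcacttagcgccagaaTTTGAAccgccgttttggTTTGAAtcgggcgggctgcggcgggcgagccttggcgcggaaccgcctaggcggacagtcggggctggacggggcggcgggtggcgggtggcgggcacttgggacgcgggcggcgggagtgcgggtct

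In secreted signals the called gene was Hgf, hepatocyte growth factor, a ligand of the Met receptor that drives growth of endothelium. Hgf was at 7.55 and 8.04 in sham P1, 3.78, 7.10, 3.32 and 6.73 in MI P1, 0.874, 1.68, 0.452 and 0.663 in sham P56 and 9.01, 8.45 and 8.48 in MI P56. Among the 13 libraries sham P56 stood alone below all others (the sparse sham P1 library 1 held 0), with an interaction of 2.92 ± 0.50 (adjusted p = 0.0159). It was the 1 called gene of 22 growth factors, whose median was 0.34 (14 positive, 8 negative), or 0.18 without MI P56 library 3. Of 15 inflammatory cytokine genes 0 were called, and 10 were positive with a median of 0.86. This median was 0.44 without MI P1 library 3. With all 16 libraries it was 0.07 with 8 of 15 positive, against -0.50 and 29.0% positive for all genes there. The neutrophil chemokine gene Cxcl1 was at 79.1 and 60.3 in sham P1, 75.1, 182, 60.5 and 34.6 in MI P1, 0.941, 0.414, 2.91 and 0.902 in sham P56 and 18.5, 11.1 and 16.6 in MI P56, an interaction of 2.84 ± 0.63 (adjusted p = 0.0516). Il6 had an interaction of 2.47 ± 0.58 (adjusted p = 0.0598). For both, MI and sham overlapped at P1 and were apart at P56.

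Cd68, a lysosomal membrane gene of macrophages, was at 13.8 and 11.8 in sham P1, 4.18, 6.21, 5.46 and 6.49 in MI P1, 2.26, 0.0517, 0.561 and 0.187 in sham P56 and 3.12, 8.17 and 6.17 in MI P56, so that all MI P1 libraries lay below both sham P1 libraries and all MI P56 libraries above all sham P56 ones. Its interaction was 3.10 ± 0.60 (adjusted p = 0.0305), and it was the 1 called of 9 macrophage genes tested (6 positive, median 1.07). The list median was 0.44 without MI P56 library 2 and 0.60 with all 16 libraries. Itgam, an integrin of myeloid cells, was at 2.60 ± 0.63 (adjusted p = 0.0741). C3ar1, the receptor of complement fragment C3a on myeloid cells and outside that list, was called at 2.69 ± 0.53 (adjusted p = 0.0331), as was the collagen-degrading protease gene Ctsk at 2.70 ± 0.55 (adjusted p = 0.0360). The summed level of 12 macrophage markers in the table ran from 70.8 to 86.4 in sham P1, 50.6 to 80.2 in MI P1, 76.5 to 131 in sham P56 and 72.5 to 157 in MI P56, with no marker at 0 in a whole group. Their part in these interactions was not tested.

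Other genes with a higher interaction belong to several functions. Dio2, the deiodinase that activates thyroid hormone, was at 2.34 and 7.39 in sham P1, 1.30, 4.46, 2.92 and 2.93 in MI P1, 0.919, 1.19, 3.60 and 2.87 in sham P56 and 20.5, 12.7 and 17.0 in MI P56, higher in every MI P56 library than in all others (3.07 ± 0.62, adjusted p = 0.0359). Serpina3n, an acute phase protease inhibitor, was at 5.33, 12.8, 29.7 and 12.0 in sham P56 and 61.1, 82.1 and 37.2 in MI P56, against 20.0 and 15.9 and 11.2, 12.3, 9.90 and 9.02 at P1 (2.79 ± 0.57, adjusted p = 0.0373). The hyaluronan receptor Cd44 (2.81 ± 0.61) and the secreted glycoprotein Fstl1 (2.19 ± 0.45) were called too. So were genes of the secretory route, namely Creb3l1 (2.88 ± 0.63), a membrane-bound factor that controls collagen secretion, Surf4 (2.57 ± 0.54) and Kdelr2 (1.97 ± 0.43), both cargo receptors between endoplasmic reticulum and Golgi. The nucleolar gene Npm1 had a smaller but precise interaction, 1.85 ± 0.32 (adjusted p = 0.0159), with values of 150.1 and 158 in sham P1, 106, 158, 138 and 123 in MI P1, 33.1, 35.2, 30.0 and 20.3 in sham P56 and 93.4, 88.2 and 89.6 in MI P56. A processed pseudogene on chromosome 10, which can share reads with its parent gene, was called at 1.79 and is uncertain for that reason. Megf10, Ano3, Cers6 and Vmp1 were called as well, with interactions of 2.69, 2.57, 1.91 and 1.74.

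In the opposite direction the largest interaction, level with that of Myh6, was that of Enpp2, which encodes autotaxin, the secreted enzyme that makes the lipid signal lysophosphatidic acid. Enpp2 (chromosome 15, 54838898 to 54920146) was at 6.77 and 5.51 in sham P1, 29.0, 22.7, 39.9 and 36.7 in MI P1, 20.8, 36.3, 18.3 and 23.0 in sham P56 and 7.86, 19.8 and 10.3 in MI P56. Every MI P1 library lay above both sham P1 libraries, while the P56 groups overlapped. The response was 2.19 ± 0.34 at P1 and -0.95 ± 0.30 at P56 (adjusted p = 0.0911 there), and the interaction -3.14 ± 0.46 (adjusted p = 0.00542, or 0.0942 without sham P1 library 5). The sparse libraries held 3.23 and 20.2 in sham P1 libraries 1 and 2 and 17.3 in MI P56 library 5, the 20.2 being 5 reads. The other 12 genes of lysophospholipid signalling tested had interactions between -1.01 (the receptor S1pr1) and 1.36 (Lpar1), none of them called. The list median was -0.01, or -1.08 with all 16 libraries, where that of all genes was -0.50.

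Genes of blood capillary endothelium mostly had negative interactions too. Of 23 tested 2 were called lower (0.161% of all genes were) and 21 had a negative interaction (6565 of 13033 over all genes). The list median was -1.44, made of -0.83 at P56 and 0.51 at P1. It was between -1.81 and -1.27 when single libraries were left out and -1.56 with all 16. Btnl9, a butyrophilin-like gene of capillaries (chromosome 11, 49165585 to 49187159), was at 12.4 and 6.96 in sham P1, 27.6, 19, 21.5 and 21.7 in MI P1, 52.8, 44.7, 73.0 and 63.8 in sham P56 and 19.7, 19 and 13.2 in MI P56. The MI P1 libraries lay above both sham P1 ones and the MI P56 libraries below all sham P56 ones, and the interaction was -2.87 ± 0.38 (adjusted p = 0.00234). Flt1, the VEGF receptor 1 that traps VEGF-A (chromosome 5, 147561604 to 147726011), was at 13.4 and 4.85 in sham P1, 39.6, 23.3, 22.7 and 19.8 in MI P1, 50.0, 68.8, 65.0 and 115 in sham P56 and 25.9, 37.3 and 34.6 in MI P56. Its groups were likewise apart at both ages and in opposite directions, with responses of -1.12 ± 0.32 at P56 and 1.52 ± 0.36 at P1, and an interaction of -2.64 ± 0.48 (adjusted p = 0.0240). Flt1 was the 1 called of 10 VEGF ligands and receptors. The VEGF receptor 2 gene Kdr was at -1.44 ± 0.34 (adjusted p = 0.0639), and Flt4 at -0.47 ± 0.48.

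Among 20 genes of all endothelium 19 were negative and 0 called (median -0.87), and among 23 genes of lymphatic identity 19 were negative and 0 called (median -0.45, or -0.14 without sham P1 library 5). With all 16 libraries the lymphatic median was -0.28 with 9 of 23 positive, above the -0.50 and 29.0% of all genes there. The list of all endothelium then had a median of -1.17 with 3 of 20 positive. Tie1, an orphan receptor in both lists, was at 25.4 and 18.7 in sham P1, 39.1, 25.8, 32.3 and 33.2 in MI P1, 28.7, 36.8, 31.6 and 32.5 in sham P56 and 21.5, 16.4 and 16.9 in MI P56 (-1.34 ± 0.33, adjusted p = 0.0748). The summed level of the 23 blood capillary genes ran from 336 to 477 in sham P1, 525 to 677 in MI P1, 1064 to 1587 in sham P56 and 460 to 810 in MI P56, and none was at 0 in a whole group. Among the 13 libraries sham P56 was thus higher than all others, and MI P1 higher than sham P1. With the sparse libraries included the sham P1 sum reached 1195, so that neither order held. Whether the share of blood endothelial cells in the sort differed between the groups was not tested.

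Cardiomyocyte transcripts, which come from cells outside the sorted gate, gave the most negative list. Of 16 tested 4 were called lower (0.161% of all genes were) and 16 had a negative interaction (6565 of 13033 over all genes). The list median was -1.85 (-1.73 at P56 and 0.33 at P1), between -2.07 and -1.60 without single libraries. Myh6, the adult myosin heavy chain (chromosome 14, 54941981 to 54966927), was at 10.1 and 22 in sham P1, 31.3, 21.7, 47.5 and 10.5 in MI P1, 303, 194, 210.2 and 146 in sham P56 and 31.5, 51.4 and 30.2 in MI P56. Sham P56 was above every other of the 13 libraries (the sparse sham P1 library 2 held 242), with responses of -2.46 ± 0.38 at P56 and 0.67 ± 0.43 at P1 and an interaction of -3.13 ± 0.58 (adjusted p = 0.0243). Cardiac actin Actc1 was at 7.66 and 18.8 in sham P1, 33.6, 32.5, 31.8 and 11.7 in MI P1, 79.5, 167, 66.2 and 58.1 in sham P56 and 24.3, 23.0 and 13.9 in MI P56 (-3.05 ± 0.59, adjusted p = 0.0309), and MI P1 overlapped sham P1 through its library 5. Troponin I (Tnni3, -2.61 ± 0.52) and the muscle cytochrome oxidase subunit Cox6a2 (-2.64 ± 0.53) were the other 2.

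Genes known from muscle and outside that list were among the 21 as well, namely desmoplakin Dsp of intercalated discs (-2.97 ± 0.57), the lactate dehydrogenase Ldhb (-2.88 ± 0.49), the muscarinic receptor Chrm2 (-2.23 ± 0.48), the kinase Mylk4 (-2.07 ± 0.44) and the actin-binding Synpo2 (-2.36 ± 0.51). Abcc9, which forms part of a potassium channel in mural and muscle cells, was at 18.5 and 19.2 in sham P1, 38.5, 33.5, 44.1 and 18.9 in MI P1, 51.1, 132, 46.8 and 122 in sham P56 and 22.2, 19.8 and 24.5 in MI P56 (-2.54 ± 0.51, adjusted p = 0.0359). Mylk4 was called in 0 of the 13 refits without 1 library, and its P1 values were 0.0422 and 0.362 in sham and 0.299, 0.275, 0.0748 and 0.0364 in MI. The summed level of the 18 cardiomyocyte genes in the table ran from 227 to 294 in sham P1, 197 to 443 in MI P1, 1478 to 2553 in sham P56 and 426 to 697 in MI P56, with no marker at 0 in a whole group. The part of cardiomyocyte RNA in the other lower genes was not tested.

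Synpo2 had, with Enpp2, the largest P1 responses of the 21. It was at 2.11 and 0.906 in sham P1, 16.3, 11.8, 9.50 and 6.64 in MI P1, 7.78, 13.2, 6.78 and 8.18 in sham P56 and 6.11, 11.8 and 6.90 in MI P56, with responses of 2.24 ± 0.39 at P1 and -0.12 ± 0.34 at P56. Igfbp5, a secreted binding protein of insulin-like growth factors, was at 128 and 80.1 in sham P1, 272, 222, 273 and 200.3 in MI P1, 1148, 536, 933 and 549 in sham P56 and 479, 597 and 347 in MI P56 (-1.93 ± 0.42, adjusted p = 0.0480). Its MI P1 libraries were all above sham P1, and its P56 groups overlapped. Galnt15, an O-glycosylation enzyme, was at 1.05 and 0.869 in sham P1, 3.64, 1.68, 4.79 and 2.87 in MI P1, 15.5, 26.7, 26.9 and 26.2 in sham P56 and 6.54, 10.4 and 7.57 in MI P56 (-2.48 ± 0.48, adjusted p = 0.0309), and Mcf2l, a guanine nucleotide exchange factor, at 0.886 and 0.145 in sham P1, 4.04, 3.24, 2.77 and 1.73 in MI P1, 12.4, 9.21, 14.5 and 27.9 in sham P56 and 5.96, 5.99 and 4.53 in MI P56 (-2.67 ± 0.55, adjusted p = 0.0381). In both, MI and sham were apart in opposite directions at the 2 ages. Clic5 (-2.40), Dach1 (-2.59), Etl4 (-2.05), Ablim3 (-1.69) and the predicted gene Gm42892 (-2.57) complete the 21.

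**Figure D5:**
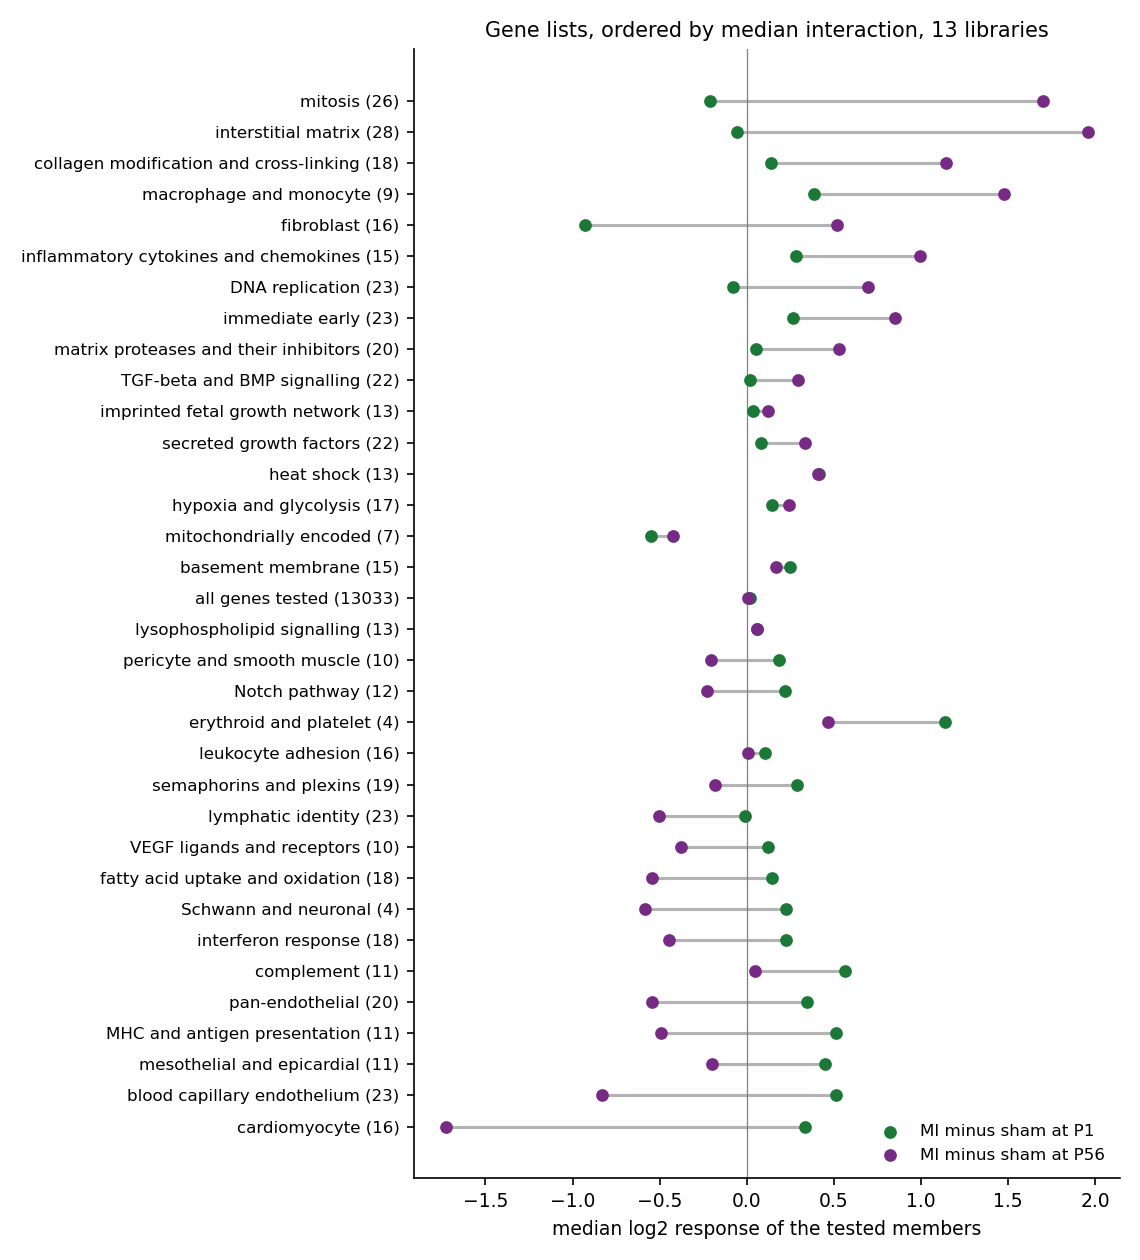
Median response to MI of the tested members of each gene list (number in parentheses) at P1 (green) and P56 (purple), on the log2(value + 1) scale in 13 libraries, ordered by the median interaction. The widest gaps are those of interstitial matrix, mitosis and fibroblast genes, with a higher median at P56, and of cardiomyocyte and blood capillary genes, with a lower one.

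In 4 lists of immune and metabolic genes 0 members were called, where 0.161% of all genes were called lower. Most interactions were negative, against 6565 of 13033 over all genes. Interferon response genes had a median of -0.66 (15 of 18 negative) and genes of MHC and antigen presentation -0.98 (10 of 11). Fatty acid uptake and oxidation was at -0.60 (17 of 18, or -0.40 without sham P56 library 2). Complement was at -0.72 with 7 of 11 negative, of the 4 lists the share nearest to that of all genes. For the first 3 the P56 median was negative and the P1 median positive, and complement had 0.04 at P56 and 0.56 at P1. The MHC class I gene H2-D1 was at 29.1 and 12.0 in sham P1, 30.6, 30.1, 14.1 and 30.6 in MI P1, 101, 108, 67.7 and 100.2 in sham P56 and 28.4, 53.8 and 39.4 in MI P56 (-1.62 ± 0.48, adjusted p = 0.153). The fatty acid carrier Fabp4, also a capillary gene, was at 40.7 and 26.6 in sham P1, 68.1, 56.8, 53.3 and 42.0 in MI P1, 92.9, 288, 97.7 and 218 in sham P56 and 61.4, 87.0 and 37.3 in MI P56 (-2.09 ± 0.53, adjusted p = 0.0949). Immediate early genes, which answer to handling as well as to injury, had a median of 0.56 (17 of 23 positive), or 0.29 without MI P56 library 1, and 0 called. Their summed level ran from 1848 to 3361 in the P1 libraries and from 451 to 902 in the P56 libraries, so every P1 library lay above every P56 library, while MI and sham overlapped at each age. The other 13 lists had medians between -1.28 (mesothelial and epicardial genes, 9 of 11 negative) and 0.37 (TGF-beta and BMP signalling, 13 of 22 positive). These 2 were -0.85 without sham P56 library 1 and 0.05 without sham P1 library 5. Among them Abcc9, of the pericyte and smooth muscle list, was the 1 called gene, and the summed level of that list of 10 ran from 113 to 240.4 in sham P1, 115 to 312 in MI P1, 467 to 1178 in sham P56 and 224 to 359.5 in MI P56.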

How the data were processed

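RNA-seq libraries of sorted cardiac lymphatic endothelial cells were made by the submitters, whose processing notes name Trimmomatic, STAR, HTSeq, edgeR and the builds mm10 and GRCm38, with no versions. The deposited table holds 1 signal value per gene and library, which the authors call CPM per the file headers. Its columns do not sum to a common total as plain CPM would, so the values were treated as a scaled signal, and the scaling step is not given in the sources used here. Values were whole multiples of 1 read's worth in 100% of cases (tolerance 0.01 read), with column sums of 297624 to 177049106, so the reads behind them were recovered, giving 17103319 to 43837520 per library. Of the 16 columns 12 matched a sample title and 4, numbered 5, matched a group alone. Columns that matched no sample or group numbered 0.

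The interaction and the responses were fitted with limma 3.58.1 (trend) in R 4.3.3 on log2(value + 1), 4 group means, no covariate, over genes at 1 or more in at least 4 libraries, and p-values were adjusted by Benjamini-Hochberg over all genes tested. A fold change on this scale understates that of low genes. Called means an adjusted p under 0.05, and SE is that of the fit. As alternatives the reads entered DESeq2 1.42.0 and the quasi-likelihood test of edgeR 4.0.16. Other alternatives were pseudocounts of 0.25 and 4, filters, median-of-ratios and quantile scaling, library weights, a library-number block and leaving out single libraries.

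Named were, per fit and direction, the 10 called genes with the largest interaction and a mean of at least 5 (unnamed predicted genes left out, gaps filled by the smallest p), and per list up to 4 called members or the 2 with the smallest p, with 7 genes of the sort and label. The other genes named were chosen after their values were seen, and some called genes are not reported here. The 34 lists hold 594 symbols, of which 542 are in the table. Members and lists were chosen with earlier results of these data known.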

Additional observations from a re-analysis of the deposited data

Results flagged for a closer look

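The 20 genes below were picked because their interaction was called in the 13 libraries (limma, adjusted p under 0.05) and was among the largest. That they pass follows from this choice and is no separate test. Higher interactions were those of Tnc (4.35), Postn (4.02), Cthrc1 (3.67), Lox (3.62), Col12a1 (3.41), Anln (3.21), Mfap5 (3.19), Cd68 (3.10), Dio2 (3.07) and Kif14 (3.00). Lower ones were those of Enpp2 (-3.14), Myh6 (-3.13), Actc1 (-3.05), Dsp (-2.97), Btnl9 (-2.87), Mcf2l (-2.67), Flt1 (-2.64), Tnni3 (-2.61), Abcc9 (-2.54) and Galnt15 (-2.48).

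Single libraries far from the other 3 of their group were looked for in 44 groups of 4 by Dixon's test, which chance passes in about 1 of 20 groups, and 5 stood out. Actc1 was at 11.7 in MI P1 library 5 against 31.8 to 33.6 in the others. Cthrc1 was at 0.0170 (1 read) in sham P56 library 5 against 0 reads. Galnt15 was at 15.5 in sham P56 library 1 against 26.2 to 26.9. The number of genes above 0 was 14121 in the lowest sham P56 library and 7746 in MI P56 library 5.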

How the results depend on the processing

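With 13 libraries the counts of 42 higher and 21 lower became 185 and 139 by DESeq2, 183 and 134 with library weights, 22 and 12 with a pseudocount of 4, 27 higher without a filter and 10 lower by edgeR. Leaving out single libraries gave 1 to 143 higher and 0 to 85 lower. With 16 libraries the counts of 1 and 0 became 89 and 18 by DESeq2, 214 and 224 with library weights, 42 and 21 in the 13 libraries, and 0 higher with a pseudocount of 4 or quantile scaling. Leaving out single libraries gave 0 to 2 higher and 0 lower. Without the 2 libraries with most reads on Uqcrc1, a choice made after seeing the data, 4 were higher and 1 lower. Deviations of 15 same-number pairs from their group means correlated at -0.32 to 0.14, over 0.1 in 1. In groups this small such deviations depend on each other, so they cannot decide whether library numbers pair the samples. With a replicate block the counts were 5 and 3 (13 libraries) or 1 and 0 (16). No named call changed sign under any alternative run, which follows largely from their choice for large interactions in these libraries. The median of all genes in the 16 libraries, -0.50, was -0.39 after median-of-ratios and -0.02 after quantile scaling. In those 2 libraries 3 reads are worth 12.1 and 12.9, which limits low values there. The causes of these changes were not tested.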

Other observations

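Some genes had values in the sparse libraries far from all others. Cspg4, a proteoglycan of pericytes, was at 2209 in library 2 of sham P1. It was at 1898 in library 5 of MI P56. In the 13 other libraries it was at 0.717 and 8.11 in sham P1, 3.99, 2.02, 2.04 and 0.582 in MI P1, 1.23, 1.03, 0.959 and 3.23 in sham P56 and 1.14, 0.367 and 4.38 in MI P56. Its interaction was 6.06 with 16 libraries and 0.45 with 13, not called in either. H19, an imprinted fetal transcript, was at 189.8 in MI P56 library 5, while the 13 libraries held 312 and 329 in sham P1, 354, 338, 376 and 286 in MI P1, 5.78, 1.42, 3.85 and 8.01 in sham P56 and 12.2, 6.34 and 13.3 in MI P56.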
